A study of Mus musculus with 12 samples.

Results

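Scavenger receptors are cell-surface proteins that bind oxidised, acetylated or otherwise modified lipoproteins, and 10 genes of this family were followed here: Cd36, Msr1, Marco, Colec12, Olr1, Scarf1, Cxcl16, Stab1, Stab2 and Lrp1. They were chosen by name, and every probe set annotated to one of them alone was taken. This gave 10 probe sets, 1 for each gene, on the array of the macrophage and liver samples, where 19938 genes had such a probe set. On the aorta array it gave 15 probe sets of 9 of the genes among 12394 genes, and Scarf1 was not analysed there.

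Scavenger receptors take up modified low-density lipoprotein (LDL) without the feedback that limits uptake through the LDL receptor, so macrophages that use them can fill with cholesterol ester and become the foam cells of the arterial plaque. The receptors differ in structure and in the cells that carry them: Msr1 and Marco are collagen-like trimers of macrophages, Cd36 is a receptor for fatty acids and oxidised lipoproteins in macrophages, fat and muscle, and Stab1 and Stab2 are large clearance receptors best known from the sinusoidal endothelium of the liver. Lrp1 is a large endocytic receptor of hepatocytes and macrophages that takes up lipoprotein remnants, with apolipoprotein E as a ligand.

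Every mouse lacked Apoe, on a C57BL/6J background, and the genotypes differed in Prkch, which encodes protein kinase C eta, as whole-body alleles: controls were Apoe-/- and knockouts Prkch-/-Apoe-/-. Peritoneal macrophages, elicited with thioglycolate, were those of regular-diet females, aged 18, 17 and 27 weeks for replicates 1, 2 and 3 (3 arrays of each genotype). Liver RNA was that of males 20 weeks old, given a high-fat diet for 12 weeks and re-fed before sampling (2 arrays of each genotype). Aorta RNA, from males of the same age and diet in the fed state, was a pool of 4 mice on a single array for each genotype. Tissue therefore goes with sex, diet and feeding, and apolipoprotein E is missing in every group.

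The number of arrays limits the precision. The deposited macrophage and liver values are log2 probe set levels with array medians between 5.88 and 6.77, and the aorta values are linear signals with medians of 27.8 and 30.1. No label names a batch, but exact ties in the deposited values divide the macrophage arrays into 2 sets, taken from the values alone: control replicates 1 and 2 with knockout replicate 1 (set 1), and control replicate 3 with knockout replicates 2 and 3 (set 2). Pairs within set 2 shared at least 16075 identical values of 35557, against at most 3 across the sets. Knockout macrophage replicate 2 stood apart: the 5 measured B cell markers summed to 3929 linear units there, against 664 to 1616 on the other macrophage arrays. Prkch, by its brighter probe set, read 9.94, 9.86 and 9.31 log2 units in control macrophages and 9.36, 8.79 and 8.87 in knockouts, so the genotypes overlapped. In liver the control arrays read 6.57 and 6.87 and the knockout arrays 5.93 and 5.65. The dimmer probe set read 7.06, 7.14 and 6.85 in control macrophages and 6.85, 6.62 and 6.62 in knockouts. In liver it showed no loss, at 4.08 and 4.04 in controls and 3.94 and 4.21 in knockouts. In aorta Prkch was below the filter on dim genes in both pools. Tissue labels were borne out by their markers: 13 macrophage markers summed to between 77450 and 88923 linear units in macrophages and 6764 to 11522 in liver, and 11 hepatocyte markers to between 116587 and 123935 units in liver and 721 to 894 in macrophages.

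The sequence before the transcription start is shown for the 3 genes with the largest differences described below: Cd36 between genotypes in liver, Olr1 toward macrophages between control tissues, and Stab2 toward liver. RefSeq promoter windows of build GRCm38.p6 matched 6 of the 10 genes by symbol. The 250 bases before the start are printed 5′ to 3′ on the strand of the gene. Capitals mark matches, on either strand, to any of 6 motifs: DR1, the PPAR and RXR element (a repeat of AGGTCA with 1 base between), AP-1 (TGANTCA), the core of PU.1 sites (GAGGAA), the TATA box (TATAAA), the GC box (GGGCGG) and the E-box (CACGTG).
Cd36, chr5:17835897-17836146, minus strand: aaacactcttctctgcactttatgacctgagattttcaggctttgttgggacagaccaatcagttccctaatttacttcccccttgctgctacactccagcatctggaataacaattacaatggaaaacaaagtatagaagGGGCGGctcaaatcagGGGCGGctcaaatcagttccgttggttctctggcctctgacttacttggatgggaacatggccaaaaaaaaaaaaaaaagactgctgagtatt
Olr1, chr6:129507166-129507415, minus strand: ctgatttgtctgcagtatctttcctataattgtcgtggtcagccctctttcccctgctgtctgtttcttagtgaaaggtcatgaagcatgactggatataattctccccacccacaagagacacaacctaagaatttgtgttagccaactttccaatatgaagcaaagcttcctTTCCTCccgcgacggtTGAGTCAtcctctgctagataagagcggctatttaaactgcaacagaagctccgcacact
Stab2, chr10:87007943-87008192, minus strand: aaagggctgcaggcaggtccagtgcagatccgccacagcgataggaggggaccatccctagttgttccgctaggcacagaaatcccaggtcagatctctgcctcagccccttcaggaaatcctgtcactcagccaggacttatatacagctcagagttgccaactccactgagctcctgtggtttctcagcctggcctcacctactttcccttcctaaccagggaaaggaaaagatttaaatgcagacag
The Cd36 window held 2 GC boxes, at 109 to 104 and 93 to 88 bases before the start. Olr1 held an AP-1 match, TGAGTCA, at 60 to 54 bases before the start and a PU.1 core on the other strand at 76 to 71 bases. Stab2 held none of the 6. Marco and Stab1 each held 1 PU.1 core, at 146 to 141 and 30 to 25 bases before the start, and Lrp1 held 1 GC box. Of 32851 windows of the same length, 32.7% held a GC box, 23.3% a PU.1 core, 12.4% a TATA box, 6.75% an AP-1 match, 6.02% an E-box and 0.0335% a DR1. A match is a description of these letters, and no binding was measured.

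The level of each receptor was first compared between control macrophages and control liver. Olr1, Msr1, Cd36, Stab1, Cxcl16 and Lrp1 were higher in macrophages, Stab2 and Colec12 were higher in liver, and Marco and Scarf1 did not pass the test. Limma with Benjamini-Hochberg adjustment over 16363 genes was run on values from which each array's median had been subtracted. It called Msr1, Cd36, Stab1, Cxcl16 and Lrp1 higher in macrophages and Stab2 and Colec12 lower. Olr1 passed the filter on dim genes in macrophages only, so its call is not counted. Limma called 33.2% of all genes higher and 30.0% lower, so a call is a common outcome here, and the contrast also holds sex, diet, age and processing. Without subtracting the medians, the median of all genes shifted by 0.78 log2 units toward macrophages and 87.1% of all calls were higher in macrophages, against 52.5% with subtraction and 47.3% after quantile normalization.

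**Figure D1:**
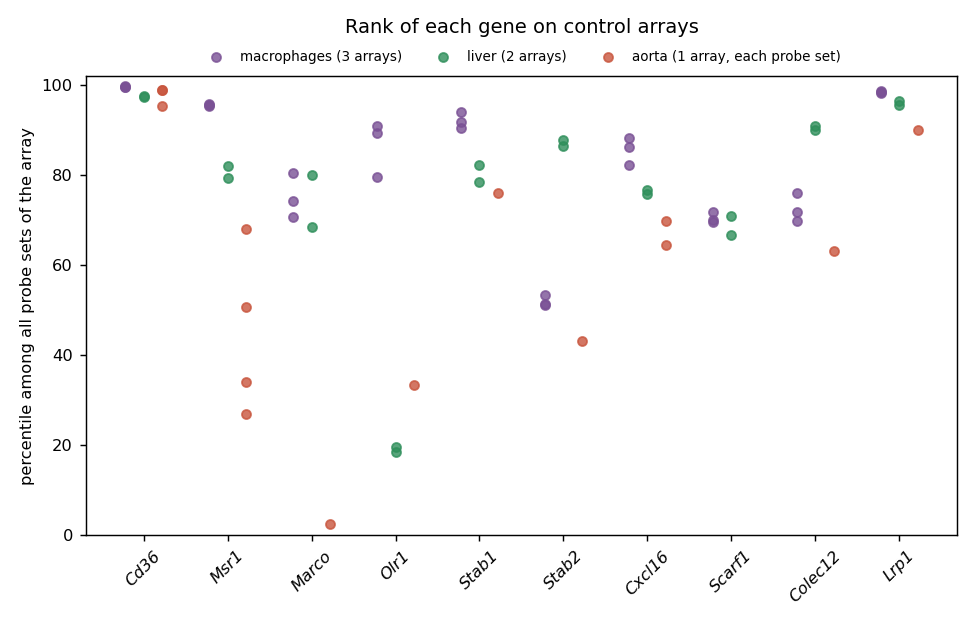
Percentile of each scavenger receptor probe set among all probe sets of its array (0 to 100) on the 3 control macrophage arrays, the 2 control liver arrays and the control aorta array; each point is 1 probe set on 1 array. Olr1 ranks between 79.6 and 90.9 in macrophages and at 18.5 and 19.6 in liver, while Stab2 ranks between 51.2 and 53.5 in macrophages and at 86.5 and 87.9 in liver.

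Olr1, the lectin-like receptor for oxidised LDL, had the widest gap toward macrophages, also as a lower bound. It read 9.93, 10.16 and 8.79 in control macrophages and 4.10 and 4.15 in control livers. Every macrophage array was far above both liver arrays, where Olr1 lay below the filter on dim genes. Relative to the array medians it was at least 15.7-fold higher in macrophages, with the control macrophage mean set against the 30th percentile of each control liver array (n = 3 and 2). Olr1 entered the limma test through its macrophage level alone, so no p is given for it.

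Msr1, the class A receptor that takes up acetylated LDL, read 11.15, 11.10 and 11.16 in control macrophages and 7.89 and 8.11 in control livers. It was 5.12-fold higher in macrophages, a difference of 2.36 ± 0.19 (SE, n = 3 and 2; limma, Benjamini-Hochberg adjusted p = 2.4e-06). Cd36 read 13.49, 13.58 and 13.76 in control macrophages and 11.30 and 11.03 in control livers. It was among the brightest probe sets of both tissues, with a percentile of at least 97.3 on each control macrophage and liver array. Its difference was 1.66 ± 0.28, or 3.17-fold (SE, n = 3 and 2; limma, Benjamini-Hochberg adjusted p = 5.1e-04).

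Stab1 read 10.31, 10.75 and 10.05 in control macrophages and 7.80 and 8.14 in control livers, a difference of 1.62 ± 0.44 (SE, n = 3 and 2; limma, adjusted p = 0.00884). This call was lost without control liver replicate 1, at adjusted p = 0.0683 by limma. Cxcl16, a membrane-bound chemokine that also binds oxidised lipoprotein, differed by 1.09 ± 0.24 (limma, adjusted p = 0.00263). Lrp1, with a percentile of at least 95.8 on each of these arrays, differed by 0.98 ± 0.14 (limma, adjusted p = 1.5e-04).

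Marco, a bacteria-binding receptor of certain macrophages, read 8.45, 8.14 and 8.88 in control macrophages and 7.04 and 7.91 in control livers. Relative to the array medians its difference was 0.23 ± 0.50 (95% confidence interval -0.88 to 1.34; limma, adjusted p = 0.699), and it turned to -0.0062 without control macrophage replicate 3 and to -0.20 without control liver replicate 1. Scarf1, an endothelial receptor for acetylated LDL, differed by 0.26 ± 0.11 (limma, adjusted p = 0.0689). It was called without subtracting the medians, at 1.04, and at 0.39 without control liver replicate 2.

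Stab2, the hyaluronan clearance receptor of liver sinusoids, ran the other way, at 6.81, 6.79 and 6.79 in control macrophages and 8.65 and 8.79 in control livers. It was 6.51-fold lower in macrophages, a difference of -2.70 ± 0.13 (SE, n = 3 and 2; limma, Benjamini-Hochberg adjusted p = 3.1e-08). Colec12, a collagen-like lectin of endothelium, read 8.25, 8.08 and 8.49 in control macrophages and 9.33 and 9.13 in control livers. It was 3.33-fold lower in macrophages, a difference of -1.74 ± 0.28 (SE, n = 3 and 2; limma, Benjamini-Hochberg adjusted p = 3.4e-04). Both kept this direction without subtracting the medians, at -1.92 for Stab2 and -0.96 for Colec12.

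In the control aorta pool only the rank within the array can be set beside these. The brightest Cd36 probe set lay above 98.9% of the array and Lrp1 above 90.1%. Stab1 lay above 76.2%, Cxcl16 above 69.9%, Msr1 by its brightest probe set above 68.2% and Colec12 above 63.3%. The other Msr1 probe sets, at 50.8%, 34.1% and 26.9%, were below the filter. Stab2 at 43.1%, Olr1 at 33.5% and Marco at 2.64% were in the dimmer part of the array, below the filter.

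In liver the genotypes were compared in re-fed, high-fat-fed males. All 10 receptors had a lower mean in knockout liver, Cd36 by the most, at 2.17-fold, but none passed the test. Limma with Benjamini-Hochberg adjustment called 0 of the 9 receptors above the filter, against 0.00627% of 15942 genes called higher and 0% lower. At an unadjusted p under 0.05, 3 of 9 were lower (Cd36, Colec12 and Cxcl16) and 0 higher, against 2.75% and 1.54% of all genes. The median difference of the 9 was -0.27 log2 units, beside -0.02 over all genes tested, of which 57.2% were below 0.

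**Figure D2:**
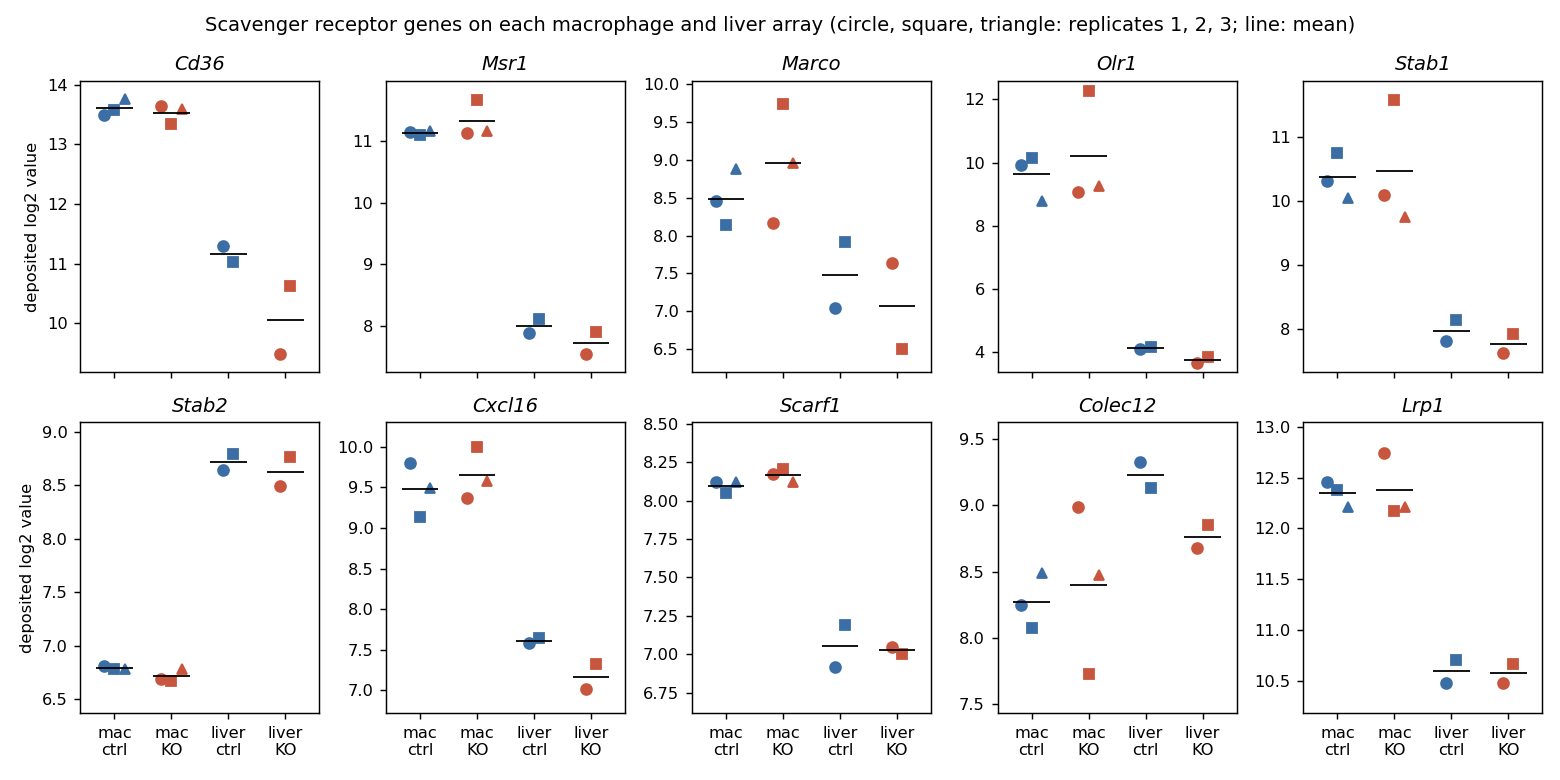
Deposited log2 values of the 10 scavenger receptor genes, 1 panel per gene with its own vertical axis, on every macrophage and liver array of controls and knockouts; lines mark the group means. Knockout macrophage replicate 2 is the highest macrophage array for 6 of the genes, and for Cd36 both knockout livers lie below both control livers.

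Cd36 read 11.30 and 11.03 in control livers and 9.48 and 10.62 in knockouts. Both knockouts lay below both controls, and knockout replicate 1 lay far below replicate 2. The difference was -1.11 ± 0.32 (SE, n = 2 and 2; 95% confidence interval -1.84 to -0.38; limma, Benjamini-Hochberg adjusted p = 0.989). Knockout replicate 1 was 1.68 below the control mean (a difference of -1.68) and replicate 2 differed by -0.55. Without knockout replicate 2, which leaves 1 knockout array assumed to vary like the controls, Cd36 was called (limma, adjusted p = 0.0314).

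Colec12 read 9.33 and 9.13 in control livers against 8.68 and 8.85 without Prkch, which gives -0.46 ± 0.14 (SE, n = 2 and 2; 95% confidence interval -0.79 to -0.14; limma, adjusted p = 1.00). Cxcl16 read 7.58 and 7.64 in controls against 7.02 and 7.32 without Prkch, which gives -0.44 ± 0.15 (95% confidence interval -0.78 to -0.10; limma, adjusted p = 1.00). For both, each knockout lay below each control. Olr1 also did not overlap, at 4.10 and 4.15 against 3.67 and 3.83, but was below the filter and was not tested. Knockouts were thus lower with no overlap for 3 of the 9 tested receptors, against 18.0% of all genes.

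Msr1 read 7.89 and 8.11 in control livers against 7.55 and 7.90 without Prkch, a difference of -0.27 ± 0.16 with a 95% confidence interval of -0.65 to 0.10. Knockout replicate 2 lay within the control range. Marco read 7.04 and 7.91 in controls against 7.63 and 6.50 without Prkch, a difference of -0.41 ± 0.38 with an interval of -1.28 to 0.46. Here the low array was knockout replicate 2, at -0.98 from the control mean, while knockout replicate 1 differed by 0.16. The median of 9 Kupffer cell markers, those of the resident liver macrophages, followed the same order of arrays in knockouts, at 9.83 and 8.87 against 9.48 and 9.83 in controls. Its part in the Marco values was not tested.

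The stabilins and Lrp1 differed little. Stab1 read 7.80 and 8.14 in control livers against 7.62 and 7.91 without Prkch, a difference of -0.20 ± 0.17. Stab2 differed by -0.09 ± 0.15, with a 95% confidence interval of -0.43 to 0.25. Lrp1 read 10.48 and 10.71 in controls against 10.48 and 10.67 without Prkch, a difference of -0.02 ± 0.15 with an interval of -0.35 to 0.32. Scarf1 differed by -0.03 ± 0.14. For these 4 genes the genotypes overlapped. Knockout replicate 1 was the lowest liver array for 7 of the 10 receptors, control replicate 1 for 2 and knockout replicate 2 for 1.

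Macrophage markers were also lower. All 13 were lower in knockout liver, 11 with no overlap, against 18.0% of all genes, with a median difference of -0.32. Their summed level was 8717 and 11522 linear units in controls and 6764 and 7757 in knockouts. Of 9 Kupffer cell markers 7 were lower, 2 with no overlap, with a median difference of -0.19. Their median level was 9.48 and 9.83 in controls and 9.83 and 8.87 in knockouts. Set against the median macrophage marker of the same array, Cd36 differed by -0.80, Colec12 by -0.15, Cxcl16 by -0.13 and Marco by -0.10. Msr1 differed by 0.04, Stab1 by 0.11, Stab2 by 0.22, Scarf1 by 0.28 and Lrp1 by 0.29. Subtracting a median that was lower in knockouts raises any gene that did not follow these markers. As deposited, Stab2, Scarf1 and Lrp1 differed by -0.09, -0.03 and -0.02. Relative to the macrophage marker median, Cd36 stood at 2.39 and 1.72 in controls against 0.77 and 1.73 in knockouts. The genotypes thus overlapped, and knockout replicate 1 alone was low. In a bulk sample fewer cells of a type and less RNA per cell cannot be told apart.

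**Figure D3:**
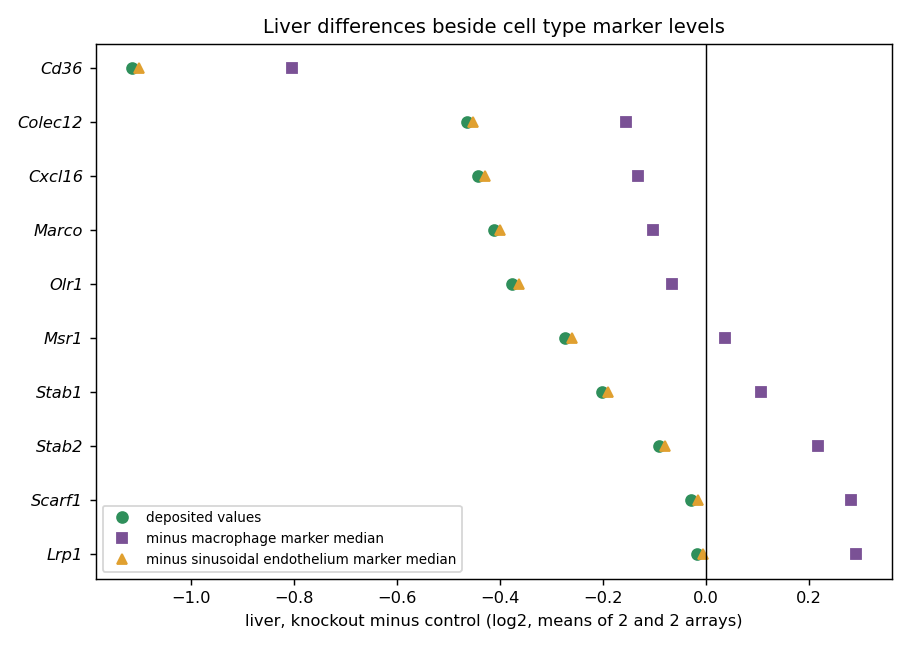
Knockout minus control difference in liver (log2) of each scavenger receptor gene as deposited and after subtracting, on each array, the median of the macrophage markers or of the sinusoidal endothelium markers. Cd36 goes from -1.11 to -0.80 relative to macrophage markers and -1.10 relative to sinusoidal endothelium markers, while Msr1, Stab1, Stab2, Scarf1 and Lrp1 lie above 0 relative to macrophage markers.

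Of 12 sinusoidal endothelium markers 8 were lower in knockout liver, with a median difference of -0.03, and relative to their median Cd36 differed by -1.10, Colec12 by -0.45 and Stab2 by -0.08. General endothelium markers were lower for 10 of 11, with a median of -0.13. Hepatocyte markers were lower for 5 of 11, with a median of 0.04. Of the 10 genes of the adipocyte list, 6 passed the filter and all 6 were lower, with a median of -0.35. Adipoq, Lep, Cfd and Ucp1 were not among the 6. The 6 include Cidec, a lipid droplet protein, at -0.78 ± 0.21 and Lpl, lipoprotein lipase, at -0.73 ± 0.24. Pck1, at -0.44, is also one of the hepatocyte markers, and Car3 and Plin1 differed little, at -0.13 and -0.012. The part of any of these cell types in the Cd36 value was not tested.

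The genes whose 4 liver values were most like those of Cd36, by root mean square difference after subtracting each gene's control mean, were Cyp2c38 at 0.091, Aldh3a2 at 0.14 and Pex11a at 0.14 log2 units. Cyp2c38, a cytochrome P450, went from 9.76 and 9.29 in controls to 7.78 and 8.88 in knockouts. Aldh3a2, a fatty aldehyde dehydrogenase, went from 12.46 and 12.30 in controls to 10.92 and 11.98 in knockouts. Pex11a, a peroxisome division protein, went from 10.18 and 9.82 in controls to 8.58 and 9.38 in knockouts. In each of them knockout replicate 1 was the lowest array, as for Cd36, which follows from choosing them by likeness on these same arrays.

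Genes that work with the receptors were taken as 5 lists, and limma called 0 members of any list in liver or macrophages. At an unadjusted p under 0.05, 8 of 69 list genes were lower and 2 higher in liver, and 2 of 69 lower and 0 higher in macrophages. Over all genes these shares were 2.75% and 1.54% in liver and 0.578% and 0.120% in macrophages. In liver, 10 of 12 transcription regulators of the receptors were lower, with a median difference of -0.10. Pparg, the nuclear receptor that drives Cd36 in macrophages and fat, differed by -1.06 ± 0.24 (SE, n = 2 and 2; limma, Benjamini-Hochberg adjusted p = 0.727). Cebpb differed by -0.44 and Spi1, which encodes PU.1, by -0.25. Of genes for sterol handling after uptake, 11 of 12 were lower, 8 of them with no overlap, with a median of -0.22. Over all genes 57.2% were below 0 and 18.0% lower with no overlap. They were led by Cd63, a late endosome tetraspanin, at -1.03 ± 0.18 (limma, adjusted p = 0.573), with Nceh1, a cholesterol ester hydrolase, at -0.53, Abcg1, a sterol exporter, at -0.48 and Fabp4, a fatty acid carrier of macrophages and fat, at -0.45.

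Other scavenger receptors were lower in knockout liver for 12 of 17, with a median of -0.05. Clec7a, a glucan receptor, differed by -0.97, Cd68, which is also one of the macrophage markers, by -0.84, Cd5l, also one of the Kupffer cell markers, by -0.62 and Scara3 by 0.47. Native lipoprotein receptors were lower for 10 of 14, with a median of -0.04, and included Lsr, the lipolysis-stimulated receptor, at 0.40. Receptor partners and processing genes were lower for 10 of 14, with a median of -0.15, and included the tetraspanin Cd81 at -0.31 and the signalling genes Vav1 at -0.29 and Fyn at -0.28.

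Elicited peritoneal macrophages were compared in the same way. The means of 8 receptors were higher in knockouts and those of Cd36 and Stab2 lower, and none differed beyond the spread between arrays. Limma with Benjamini-Hochberg adjustment called 0 of 10, with adjusted p = 1.00 for each, and 0 had an unadjusted p under 0.05. Over all 15039 genes 0% were called higher and 0% lower, and at an unadjusted p under 0.05 0.120% were higher and 0.578% lower. The genotypes overlapped for each receptor, while over all genes knockouts were higher with no overlap in 0.652% and lower in 1.60%. The median receptor difference was 0.12 log2 units, beside -0.04 over all genes, of which 63.5% were below 0.

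Cd36 in knockout macrophages read 13.64, 13.34 and 13.60, a difference of -0.09 ± 0.12 (SE, n = 3 and 3; limma, 95% confidence interval -0.37 to 0.20). Msr1 read 11.13, 11.67 and 11.17, a difference of 0.19 ± 0.15 with an interval of -0.18 to 0.55. Knockout replicate 2 was the lowest macrophage array for Cd36 and the highest for Msr1. Without it Cd36 differed by 0.0064 and Msr1 by 0.013.

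Olr1 had the largest mean difference and the widest interval, 0.58 ± 0.87 (SE, n = 3 and 3; limma, 95% confidence interval -1.51 to 2.67). Knockouts read 9.08, 12.28 and 9.27, so knockout replicate 2 was above every other macrophage array and the other knockouts lay within the control range. The difference was -0.96 in set 1 and 1.98 in set 2, and -0.45 without knockout replicate 2. Stab1 was also highest on knockout replicate 2, at 10.09, 11.58 and 9.75 in knockouts, with a difference of 0.10 ± 0.47 that was -0.44 in set 1, 0.62 in set 2 and -0.45 without knockout replicate 2.

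Marco read 8.17, 9.74 and 8.96 in knockout macrophages, a difference of 0.47 ± 0.40 with a 95% confidence interval of -0.48 to 1.42. It was -0.13 in set 1, 0.47 in set 2 and 0.07 without knockout replicate 2. On that array the 4 measured monocyte markers summed to 8301 linear units, against 3450 to 4485 on the others, and 6 markers of resident peritoneal macrophages to 21903, against 6371 to 13870. Their part in the Olr1, Stab1 and Marco values was not tested.

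Colec12 read 8.99, 7.73 and 8.48 in knockout macrophages, a difference of 0.13 ± 0.31 that was 0.83 in set 1, -0.39 in set 2 and 0.46 without knockout replicate 2. That array was the lowest for Colec12 and also for the sum of 11 endothelium markers, at 1397 linear units against 1583 to 1799. It was the lowest too for the sums of smooth muscle (753), mesothelium (657) and adipocyte markers (4706). Smooth muscle sums were 831, 753 and 769 in set 2, against 952 to 1065 in set 1. Median percentiles on the macrophage arrays were only 40.7 to 42.9 for endothelium and 41.4 to 44.8 for smooth muscle markers. Fibroblast and stellate cell markers were lowest on knockout replicate 2 by median (6.84) but not by sum (6124, against 4535 on knockout replicate 3). The part of these cells in the Colec12 values was not tested. Cxcl16 read 9.81, 9.14 and 9.49 in controls against 9.36, 10.001 and 9.58 in the Prkch-/- arrays, which gives 0.17 ± 0.22 and was -0.11 in set 1, 0.30 in set 2 and -0.0077 without knockout replicate 2.

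Lrp1 read 12.46, 12.38 and 12.21 in control macrophages against 12.75, 12.17 and 12.21 in the Prkch-/- arrays, a difference of 0.02 ± 0.17 that was 0.32 in set 1 and -0.02 in set 2. Stab2 differed by -0.08 ± 0.08, with a 95% confidence interval of -0.26 to 0.10, and by -0.11 and -0.06 in the sets. Scarf1 differed by 0.07 ± 0.07, with an interval of -0.11 to 0.25, and by 0.09 and 0.04 in the sets. Control replicate 3 and knockout replicate 3 held exactly the same value for 3 receptors, Stab2, Scarf1 and Lrp1.

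Among the 5 lists in macrophages, 10 of 12 sterol handling genes were lower, with a median difference of -0.15. They include Cd63 at -0.46 and the fatty acid carrier Fabp4 at -0.39 ± 0.09 (SE, n = 3 and 3; limma, Benjamini-Hochberg adjusted p = 1.00). Regulators were lower for 7 of 12, with a median of -0.08, Pparg at -0.57 ± 0.41 and Nr1h3, the liver X receptor alpha, at -0.38 ± 0.21. Other scavenger receptors were lower for 8 of 17, native lipoprotein receptors for 7 of 14, and partners for 5 of 14, with Cd81 at -0.36.

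Whether the genotype difference itself differed between macrophages and liver was tested in 1 model of all 10 arrays. The macrophage difference was above the liver difference for all 9 receptors above the filter in both tissues, but limma called none, with adjusted p = 1.00 for each, against 0% of 16363 genes called higher and 0% lower. Cd36 had the largest gap, 1.03 ± 0.38 log2 units (95% confidence interval 0.18 to 1.87), which became 0.46 without knockout liver replicate 1 and 1.60 without knockout liver replicate 2. It was the 1 receptor with an unadjusted p under 0.05, where 1.09% of all genes were higher and 1.02% lower. Gaps followed of 0.88 for Marco, 0.61 for Cxcl16, 0.59 for Colec12, 0.46 for Msr1 and 0.31 for Stab1. Those of Scarf1, Lrp1 and Stab2 were 0.10, 0.04 and 0.01. Olr1 has no gap to compare, since its liver values lay below the filter. Over all genes tested 52.7% of gaps were below 0.

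**Figure D4:**
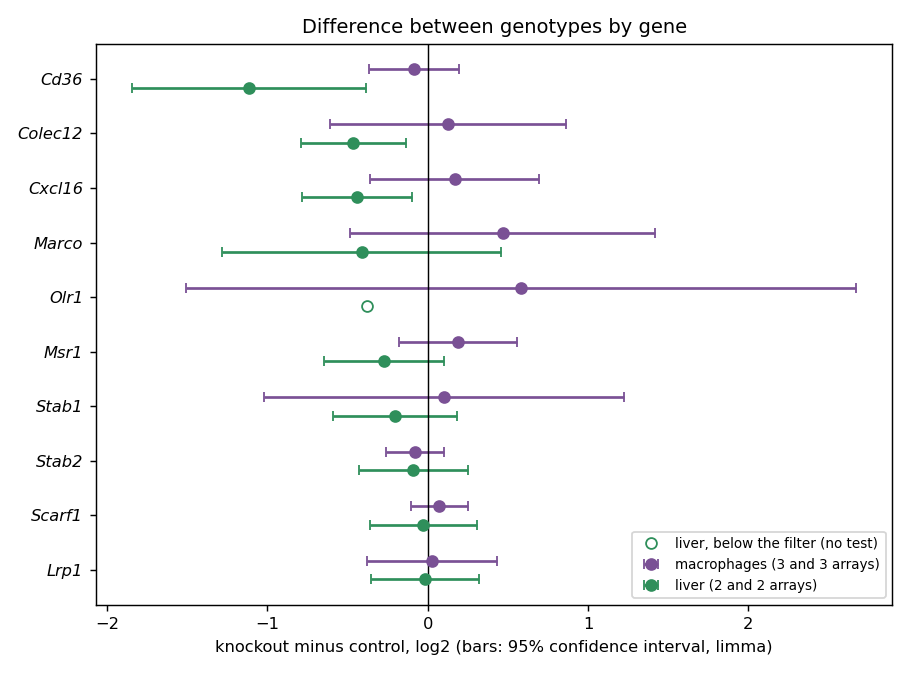
Knockout minus control difference (log2) of each scavenger receptor gene in macrophages and in liver; bars are 95% confidence intervals from limma, and the open point marks Olr1 in liver, which was not tested. In liver the differences run from -1.11 for Cd36 to -0.02 for Lrp1, and in macrophages from -0.09 for Cd36 to 0.58 for Olr1.

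The aorta arrays allow sizes but no test, with 1 pool per genotype. None of the 6 receptor genes above the filter reached a 2-fold difference on the log2(signal + 16) scale, which understates the change of dim genes, while 0.873% of 7098 genes above the filter did so upward and 0.394% downward. Of these 6, 4 were higher and 2 lower in the knockout pool, with a median difference of 0.06, beside -0.0096 over all genes, of which 51.5% were below 0.

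**Figure D5:**
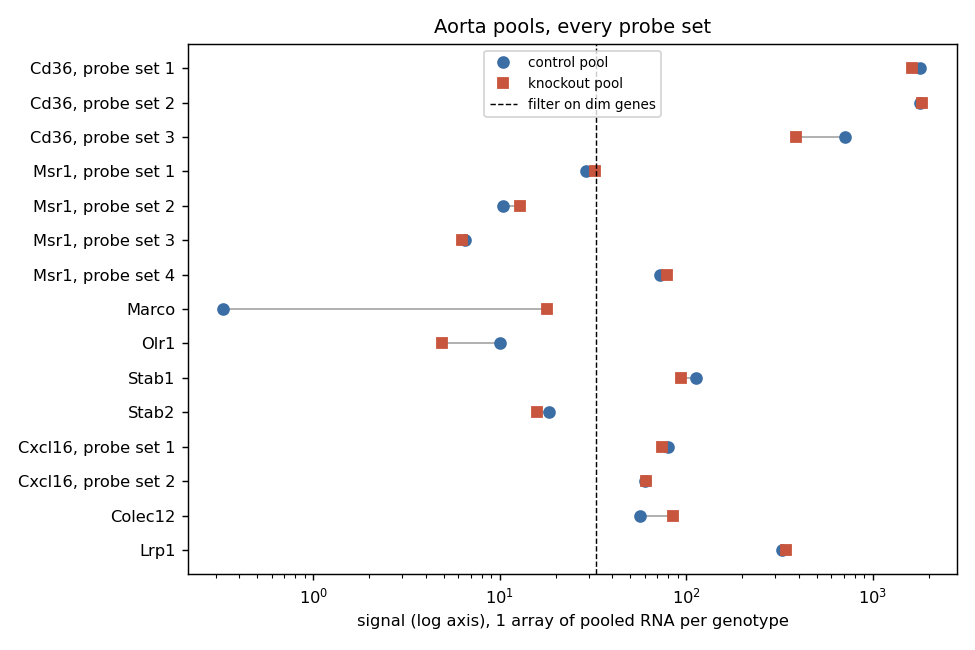
Deposited linear signal of each scavenger receptor probe set in the control and the knockout aorta pool, 1 array each. The Cd36 probe sets do not move together: the brightest goes from 1784 to 1848 and the dimmest from 714 to 388.

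Cd36 was read by 3 probe sets that disagree. Their signals went from 1784 to 1848, from 1781 to 1627 and from 714 to 388, log2 differences of 0.05, -0.13 and -0.85. The first turned to -0.09 after quantile normalization and to -0.0049 relative to the median macrophage marker. Striated muscle markers, of which 9 of 10 were lower with a median of -0.79, went from a sum of 11412 to 7254 between control and knockout, and adipocyte markers from 14119 to 15566. Their part in the Cd36 signals was not tested. Macrophage markers summed to 7667 and 7952.

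Among the brightest probe sets of the receptor genes above the filter, Colec12 had the largest difference, from 56.5 to 85.0, a log2 difference of 0.48. Stab1 went from 113 to 93.9, a difference of -0.23. Lrp1 went from 326 to 345, the brightest Msr1 probe set from 72.6 to 79.0 and the Cxcl16 probe sets from 79.4 to 73.9 and from 60.0 to 60.7. Marco at 0.329 and 18.0, Olr1 at 9.98 and 4.91 and Stab2 at 18.4 and 15.9 were below the filter in both pools, so no fold is given. In the 5 lists 0 genes reached 2-fold: 11 of 13 other scavenger receptors, 10 of 12 partners and 7 of 10 sterol handling genes were higher in the knockout pool, 4 of 8 native lipoprotein receptors were higher, and 8 of 10 regulators were lower.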

How the data were processed

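Macrophage and liver RNA was read on Gene 1.0 ST arrays and aorta RNA on 430A 2.0 arrays. The submitters' processing notes name Affymetrix Expression Console, and how it summarised probes is not given in the sources used here. For macrophages and liver the authors deposited log2 values, and for aorta linear signal intensity, and these deposited values were used as they are. Of 35557 probe sets, 21789 had 1 gene symbol, 1621 several and 12147 none (aorta 22690: 20393, 691 and 1606).

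Each gene was read by its probe set with the highest mean, and genes under the 30th percentile of probe set means were left out. Genotypes were compared per tissue with limma 3.58.1 in R 4.3.3, with Benjamini-Hochberg adjustment over all genes kept and calls at 0.05. The interaction and the tissue contrast used all 10 arrays and kept genes that passed the filter in either tissue. Aorta signals were taken as log2(signal + 16), with a filter at a signal of 32.6. The fits were tested on simulated data.

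The receptors, the 5 pathway lists and the 17 marker lists were chosen with earlier results of these data known. Named list genes are up to 4 per list with the smallest p, or the largest difference in aorta. Replicate numbers were not taken as pairs. Alternatives covered normalization, filter, probe set choice, prior, block and leaving out each array.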

Additional observations from a re-analysis of the deposited data

Results flagged for a closer look

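Scarf1 was noted because all 3 knockout macrophage arrays lay above the mean of the macrophage controls and both knockout liver arrays lay below the mean of the liver controls. The margins were small: knockout liver replicate 1 differed from the control mean by only -0.0049 log2 units. Knockout macrophage replicate 3 held exactly the value of control replicate 3. The macrophage difference minus the liver difference was 0.099 log2 units, and the interaction test of limma gave an adjusted p of 1.00.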

How the results depend on the processing

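The data limit these results mainly by the number of arrays, 2 or 3 per genotype, and by signals near background for Olr1 in liver and for Marco, Olr1 and Stab2 in aorta. Of 546 single receptor values under an alternative, 34 changed sign and 512 did not. The 546 include macrophage minus liver values of Olr1, although its liver values lay below the filter. In macrophages and liver, the filter, probe set choice, prior, replicate block and joint fit of both tissues left each genotype difference unchanged. Such values could not change sign, so the 512 do not measure how stable the signs are. Leaving out 1 array gave 27 of the changes, setting values against macrophage markers 6 (Msr1, Stab1, Stab2, Scarf1 and Lrp1 in liver and Cd36 in aorta) and quantile normalization 1 (Cd36 in aorta). The cause was not tested.

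The liver count of 1 called gene became 0 with quantile normalization, no filter on dim genes, an intensity-trended prior or all 10 arrays in one fit. It became 2 with every probe set as a row and 23 with the replicate block. It ranged from 0 to 36 when 1 array was left out, with 36 without liver knockout replicate 2. The replicate block called 0 genes in macrophages. There, with the mean of each group subtracted, same-numbered arrays correlated at 0.40, 0.03 and 0.50 and differently numbered pairs at -0.46 to 0.19. The arrays numbered 1 lay within a set, as did those numbered 3, while those numbered 2 lay in different sets. The interaction count of 0 ranged from 0 to 1 with 1 array left out. With 1 array left out, the number of receptors lower ranged from 2 to 4 in macrophages (2 with all arrays) and 6 to 9 in liver (9 with all arrays), and it was 10 in liver with no filter on dim genes. The aorta count of 90 genes at 2-fold became 169 with a pseudocount of 1 and 37 with 64.

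With 1 array left out, macrophage differences ranged from -0.15 to 0.0064 for Cd36, -0.45 to 1.15 for Olr1, -0.45 to 0.47 for Stab1, -0.0077 to 0.33 for Cxcl16, -0.17 to 0.46 for Colec12 and -0.16 to 0.13 for Lrp1. Liver differences ranged from -0.98 to 0.16 for Marco, -0.17 to 0.11 for Scarf1, -0.23 to 0.043 for Stab2 and -0.13 to 0.10 for Lrp1. Macrophage minus liver differences ranged from -0.14 to 0.16 for Lrp1, -0.077 to 1.52 for Olr1 (below the filter in liver), -0.25 to 0.67 for Stab1, -0.12 to 0.15 for Stab2 and -0.039 to 0.24 for Scarf1. The control tissue difference of Marco ranged from -0.20 to 0.66.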
